A study of Gallus gallus with 16 samples.

Results

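AMH (ENSGALG00000024368, chicken chromosome 28) encodes anti-Müllerian hormone, and its level is followed here in gonads of chicken embryos of both sexes after 4 treatments. It was taken by its gene symbol, which 1 of the 14074 genes listed in the deposited table carries. Gonads were collected at embryonic day 19 and profiled by SuperSAGE, a tag method. A transcript with an NlaIII site yields 1 short read, cut beside the last such site before its tail. A transcript that lacks the site yields no tag. Tag numbers need no correction for transcript length. The groups were female and male embryos given methyltestosterone at 30 pg per g body weight (an androgen made by synthesis), tributyltin at 10 pg tin per g body weight (an organotin compound), sesame oil or nothing. The labels describe 16 libraries, 1 each for the left and the right gonad of a sex and substance, each from RNA of 10 individuals, and they do not say in what methyltestosterone or tributyltin was given. The values used here come as 8 columns, 1 per sex and substance, in which both sides had been joined in a way that was not stated.

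AMH is a secreted glycoprotein of the TGF-beta family. In the embryonic testis it is made by Sertoli cells and makes the Müllerian ducts, the forerunners of the oviduct and uterus, regress. Birds differ from mammals in that the embryonic ovary makes AMH too, the right Müllerian duct of the female regresses, and the left one persists as the oviduct under the protection of oestrogen. The hormone binds a type II receptor of its own, AMHR2, which recruits type I receptors shared with bone morphogenetic proteins and acts through SMAD1, SMAD5 and SMAD9. In mammals SOX9, NR5A1, GATA4 and WT1 act on its promoter, whereas in chicken testes AMH appears before SOX9.

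The columns held 314810 to 6669049 tags. The methyltestosterone and untreated columns had 1953798 or more tags and the tributyltin and oil columns 508095 or fewer, so depth divides the substances into the same pairs in both sexes. Values are in RPM, the tags of a gene scaled to a common total per column. A level of 3 tags, the smallest read as one, was 0.450 to 1.54 RPM in the methyltestosterone and untreated columns and 5.90 to 9.53 RPM in the tributyltin and oil columns. Tags of 10 listed W-linked genes, which only females (ZW) carry, summed to 235, 180.0, 178 and 324 RPM in females given methyltestosterone, tributyltin, oil or nothing, against 33.9, 0, 4.06 and 36.9 RPM in the males. The W-linked tags in male columns and their part in the AMH values were not tested. Since both gonads of 10 individuals were joined, a lower AMH level can mean fewer cells making it or less of its RNA per cell, and these cannot be told apart.

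AMH was one of the most abundant transcripts of the male gonad, and in females it reached a comparable level after methyltestosterone but not in the other 3 columns. In females it stood at 6774 RPM after methyltestosterone, 977 after tributyltin, 1242 after oil and 1486 without treatment. In males it stood at 10834 RPM after methyltestosterone, 6912 after tributyltin, 8167 after oil and 10186 without treatment. All 4 female values lay below all 4 male values, as they did for 3.53% of the genes tested below, but in RPM the female value after methyltestosterone lay within counting error of the lowest male one, after tributyltin. Median-of-ratios scaling, an alternative to RPM, divides the methyltestosterone female column by 1.08 and the tributyltin male column by 0.957. It moves these values apart.

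By rank among all listed genes AMH was 10th in the methyltestosterone female column and 128th, 97th and 93rd in the tributyltin, oil and untreated female columns. In males it ranked 4th, 16th, 13th and 8th for the same substances. AMH made up 0.677% of all tags in the methyltestosterone female column, against 1.08% in the methyltestosterone male column. In untreated gonads it made up 0.149% of tags in females and 1.02% in males. The mean over female columns was 2620 ± 2777 RPM (SD, n = 4 columns), or 1235 ± 255 (n = 3) without methyltestosterone, against 9025 ± 1809 in males (n = 4).

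Each value rests on many tags, from 380 in tributyltin females to 72251 in methyltestosterone males, so counting error was small. The exact Poisson 95% interval was 6684 to 6866 RPM for methyltestosterone females and 1437 to 1537 RPM for untreated females. It was widest in proportion in tributyltin females, at 882 to 1081 RPM. The tags carry no molecular identifiers and may repeat a molecule, so that such intervals cover counting error only.

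Ordered by level, the columns ran from methyltestosterone, untreated, oil and tributyltin males to methyltestosterone, untreated, oil and tributyltin females. The substances thus had the same order in both sexes in RPM. The male ratio of methyltestosterone to untreated was 1.06, and it turned to 0.985 under median-of-ratios scaling. In RPM the counting intervals of neighbours overlapped in 1 case, that of tributyltin males (6685 to 7145 RPM) and methyltestosterone females. A counting interval leaves out the spread between columns, which the additive model described below puts at a standard error of 0.67 on the log2 scale for a difference between a pair of single columns. Of the 7 steps between neighbours 1 exceeded that, the step of 2.19 between methyltestosterone and untreated females, and the other 6 were 0.03 to 0.35. With a separate term for methyltestosterone females, also described below, that standard error was 0.336. The step of 0.345 between oil and tributyltin females exceeded this lower value as well. The whole range was 3.47 on the log2(RPM + 1) scale.

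**Figure D1:**
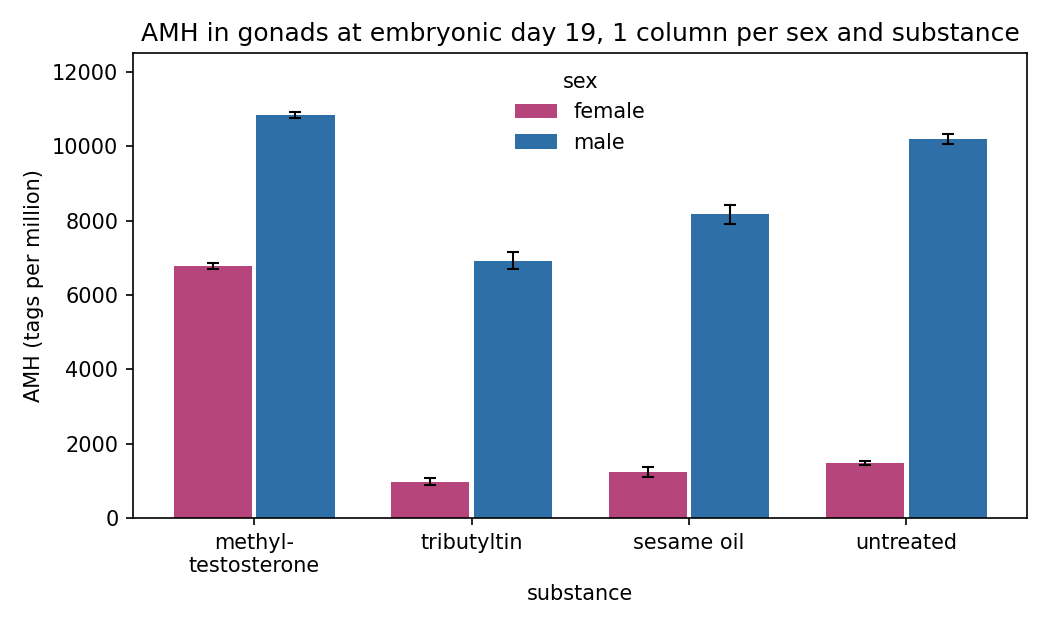
AMH level in RPM (linear vertical axis starting at 0) for the female and male column of each substance. Bars are the 8 columns, 1 per sex and substance, and error bars are exact Poisson 95% intervals of counting error. The methyltestosterone female bar, at 6774, stands near the tributyltin male bar, at 6912, and the other 3 female bars lie at 977 to 1486.

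The first comparison asks how far AMH parts female from male gonads at this age. AMH was lower in females by -2.25 on the log2 scale (SE 0.34, 95% interval -2.99 to -1.50, limma adjusted p = 0.00342) in an additive model of sex and substance over 8 columns. It was lower in females in 4 of 4 substances. Of 9280 genes tested, 553 (5.96%) were called by sex at an adjusted p under 0.05, 341 of them (3.67%) higher and 212 (2.28%) lower in females, and AMH ranked 120th by p. For 328 genes (3.53%) all female columns lay below all male ones, so AMH shares that arrangement with many genes. An exact two-sided permutation test of the sexes over all 70 assignments of the 8 columns gave p = 0.0286, the smallest it can give, and exchanging the sexes within substances only gave an exact p = 0.125, also the smallest possible.

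The size of the sex difference depended on the methyltestosterone females. Within a substance the female over male ratio was 0.625 (95% counting interval 0.616 to 0.635) after methyltestosterone, 0.141 (0.127 to 0.157) after tributyltin, 0.152 (0.137 to 0.169) after oil and 0.146 (0.141 to 0.151) without treatment. The tributyltin, oil and untreated intervals overlap one another, and the methyltestosterone interval lies apart from all of them. In other words AMH was 7.07, 6.58 and 6.85 times as high in males as in females after tributyltin, oil and no treatment, and 1.60 times as high after methyltestosterone. In the model with a separate term for methyltestosterone females the log2 sex difference over the other 3 substances was -2.77 (SE 0.19, limma adjusted p = 0.000388).

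That difference between sex differences was tested directly. The female minus male difference of AMH after methyltestosterone exceeded its mean over the other 3 substances by 2.09 on the log2 scale (SE 0.39), with the second smallest limma p of all genes tested. It did not pass adjustment over all genes (limma adjusted p = 1.0), and no gene did: 0 of 9280 were called (0%), with 163 at an unadjusted p under 0.05. On whole tags recovered from 7 columns (all but untreated females), the same difference against oil and tributyltin was 2.27 in edgeR (adjusted p = 7.13e-05), where 17 genes (0.183%) were called and AMH ranked 6th by p. DESeq2 on those columns gave 2.21 (adjusted p = 0.00308), with 7 of 1184 genes called (0.591%). In these count fits the methyltestosterone columns have no replicate. The spread of a gene came only from the oil and tributyltin columns and from what the tools share between genes. The call therefore depended on the tool, and the small p-values of the count tools do not measure spread between methyltestosterone pools. Leaving out single columns in limma moved the value to between 2.07 and 2.12, with an adjusted p of 0.0398 without tributyltin females, 0.0188 without tributyltin males and 0.0363 without oil males. It did not pass without oil females (0.0525), untreated females (0.9993) or untreated males (0.9992), so 3 of these 6 fits made the call.

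The same term for the other substances did not exceed its standard error. The female minus male difference differed from the mean of the others by -0.76 after tributyltin (SE 0.82, limma adjusted p = 0.812), by -0.62 after oil (SE 0.82, limma adjusted p = 0.731) and by -0.70 without treatment (SE 0.79, limma adjusted p = 0.9998). Each of these means includes methyltestosterone, and without the methyltestosterone female column the values were -0.07 after tributyltin, 0.08 after oil and -0.01 without treatment. Limma called 0 genes (0%) for each of these terms, with 899, 1652 and 67 at an unadjusted p under 0.05.

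**Figure D2:**
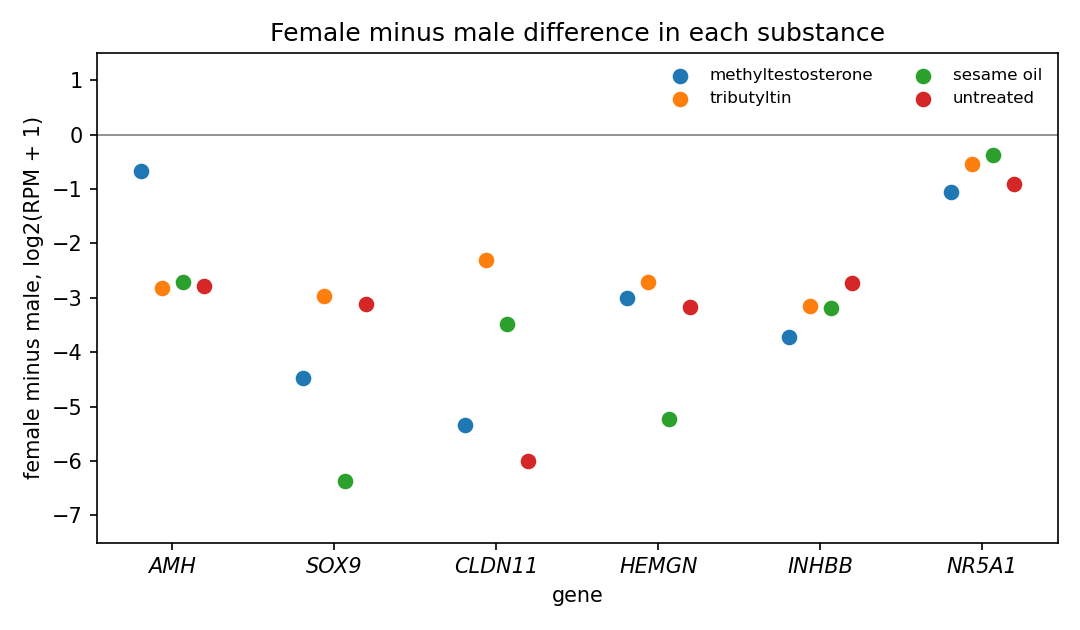
Female minus male difference on the log2(RPM + 1) scale (vertical axis, 0 means equal) for AMH and 5 other genes called lower in females, with 1 point per substance. For AMH the methyltestosterone point stands at -0.68 and the other 3 lie between -2.82 and -2.72, while for SOX9, CLDN11, HEMGN, INHBB and NR5A1 the methyltestosterone point lies among or below the others. Other members of the gene and marker lists called lower in females are not drawn. Of these, BMP5, KIT and HSD3B2 had their smallest difference after methyltestosterone, as AMH did, and WNT5A did not.

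The second comparison sets methyltestosterone against untreated gonads. In females AMH was 6774 RPM after methyltestosterone and 1486 RPM untreated, a ratio of 4.56 (95% counting interval 4.396 to 4.727). Against the other female columns the ratio was 5.45 to oil and 6.93 to tributyltin. Of 3365 genes averaging 50 RPM or more in the methyltestosterone and untreated female columns, 17 (0.505%), AMH among them, had a ratio at least as high. In males AMH was 10834 RPM after methyltestosterone and 10186 RPM untreated, a ratio of 1.06 (1.05 to 1.08), which turned to 0.985 under median-of-ratios scaling. Each of these ratios compares 1 column with 1 column and has no replicate.

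Averaged over the sexes, the log2 difference between methyltestosterone and untreated gonads was 1.14 (SE 0.47), which did not pass (limma adjusted p = 0.486). In that contrast 32 of 9280 genes (0.345%) were called. With the separate term for methyltestosterone females the contrast describes males alone and was 0.09 (SE 0.31, limma adjusted p = 0.999).

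Few genes showed the AMH pattern of a high ratio in females beside none in males. Among 3333 genes averaging 50 RPM or more over the 4 columns concerned, AMH had a log2 ratio of 2.19 in females and 0.09 in males, and the difference between them, 2.10, ranked 7th. The 6 genes above it were SELENBP1, RPS28, PDLIM7, RPS27A, H2AFV and CD151, named after their values were seen. Of the 16 genes with a female ratio as high as that of AMH, 2 had a male log2 ratio within 0.5 of zero, AMH and APH1A, also named after its values were seen. The authors' deposited table gives a p for AMH of 0 between methyltestosterone and untreated females, and between methyltestosterone and untreated males a p of 9.44e-15. The test behind these p-values was not stated, and for the first pair 41.8% of genes with a p in the authors' deposited table were under 0.05.

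**Figure D3:**
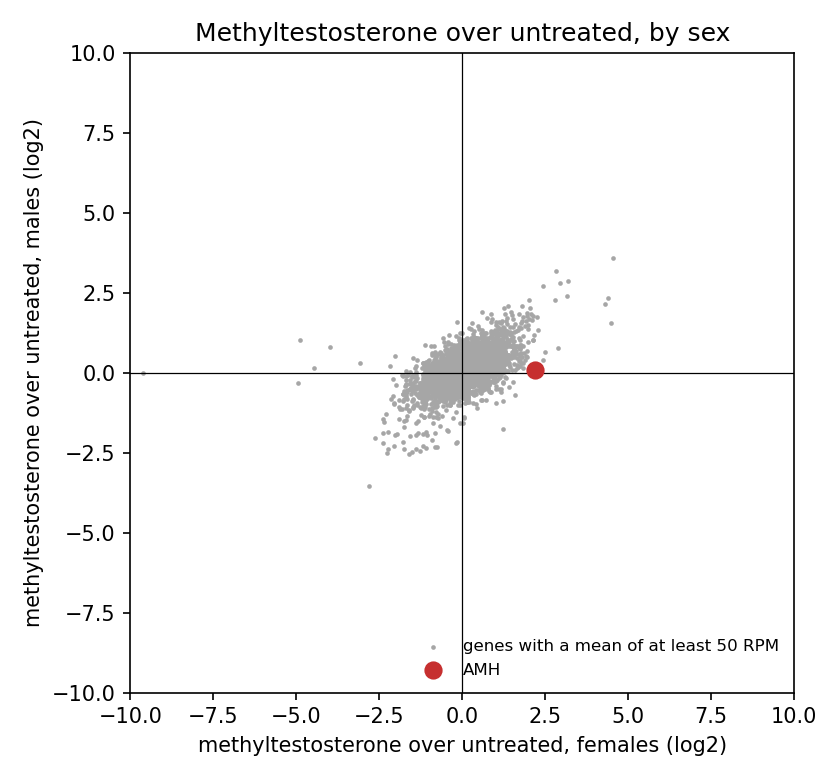
Methyltestosterone over untreated as a log2 ratio of RPM + 1 in females (horizontal axis) and males (vertical axis), with 1 point for each of 3333 genes averaging 50 RPM or more and AMH in red. AMH lies at 2.19 in females and at 0.09 in males, at the right edge of the cloud and near the horizontal zero line.

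The third comparison sets tributyltin against oil. In females AMH was 977 RPM after tributyltin and 1242 RPM after oil, a ratio of 0.787 (95% counting interval 0.682 to 0.909). In males it was 6912 RPM after tributyltin and 8167 RPM after oil, a ratio of 0.846 (0.809 to 0.886). Both ratios lay below 1 by more than counting error. Over both sexes the log2 difference was -0.29 (SE 0.47, 95% interval -1.34 to 0.76; limma adjusted p = 0.842). Limma called 0 of 9280 genes (0%) in this contrast, with 991 at an unadjusted p under 0.05, while edgeR called 4 and DESeq2 2 on 7 columns. The authors' deposited table gives AMH a p of 0.000849 for this pair in females and 3.94e-13 in males.

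Oil against untreated gave 1242 and 1486 RPM in females, a ratio of 0.836, and 8167 and 10186 RPM in males, a ratio of 0.802. The log2 difference over both sexes was -0.29 (SE 0.47, limma adjusted p = 0.744), in a contrast where 590 genes (6.36%) were called and the median of all genes was -0.28. The AMH value was -0.64 without untreated females and 0.06 without untreated males, so it depended on single columns. Methyltestosterone against oil differed by 1.43 on the log2 scale (SE 0.47; limma adjusted p = 0.0877), with 744 genes (8.02%) called and a median over all genes of 0.36. That value fell to 0.38 without the methyltestosterone female column, and the ratio behind it was 5.45 in females and 1.33 in males. It was called by edgeR (1.45, adjusted p = 0.000518) and DESeq2 (1.39, adjusted p = 0.0287) on 7 columns. Both contrasts cross the division of the columns by depth, so substance and depth cannot be told apart in them.

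The next description places AMH in the methyltestosterone female column among other genes higher in males. Genes were called by sex in the 6 columns of the other 3 substances, and each was placed on a scale from 0, the mean of the other 3 female columns, to 1, the mean of the 3 male columns, on log2(RPM + 1). AMH was at 0.893 in the methyltestosterone female column, close to the male mean. The 106 genes called higher in males, AMH included, had a median position of 0.239 (interquartile range -0.095 to 0.490), 26 of them (24.5%) were at 0.5 or more, and 9 were at or above the AMH position. When the untreated female column was placed in the same way, 23 of 91 genes (25.3%) were at 0.5 or more, a similar share, but AMH was at -0.213. AMH was at -0.606 in tributyltin females, where 7 of 78 genes (8.97%) were at 0.5 or more. It was at -0.376 in oil females, where 27 of 171 genes (15.8%) were. For these 3 substances the mean of the other females includes the methyltestosterone column.

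Genes called higher in females gave the counterpart. In the methyltestosterone female column the 190 such genes had a median position of 0.026, where 0 is again the other females and 1 the males, and 21 (11.1%) were at 0.5 or more. In untreated, tributyltin and oil females, placed in the same way, the share was 8.28%, 13.2% and 27.5%. Most female-high genes thus lay below 0.5 in the column where AMH stood near the males, as did most male-high genes.

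The other male-high genes at 0.5 or more in methyltestosterone females with the highest male means were ZNF593, ALDOC, RBF and AIF1L. ZNF593, a zinc finger protein gene, was at 1642 RPM in methyltestosterone females, 550, 715 and 558 RPM in tributyltin, oil and untreated females, and 917 to 1606 RPM in males (position 1.55). ALDOC, a glycolytic aldolase, was at 1652 RPM in methyltestosterone females and 399 to 1228 RPM in the other females, against 783 to 1871 RPM in males (position 1.42). RBF and AIF1L, an actin-binding protein gene, were at positions 0.694 and 0.671. Their log2 sex differences in the 6 columns, -1.03 to -0.93, were smaller than the -2.77 of AMH.

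**Figure D4:**
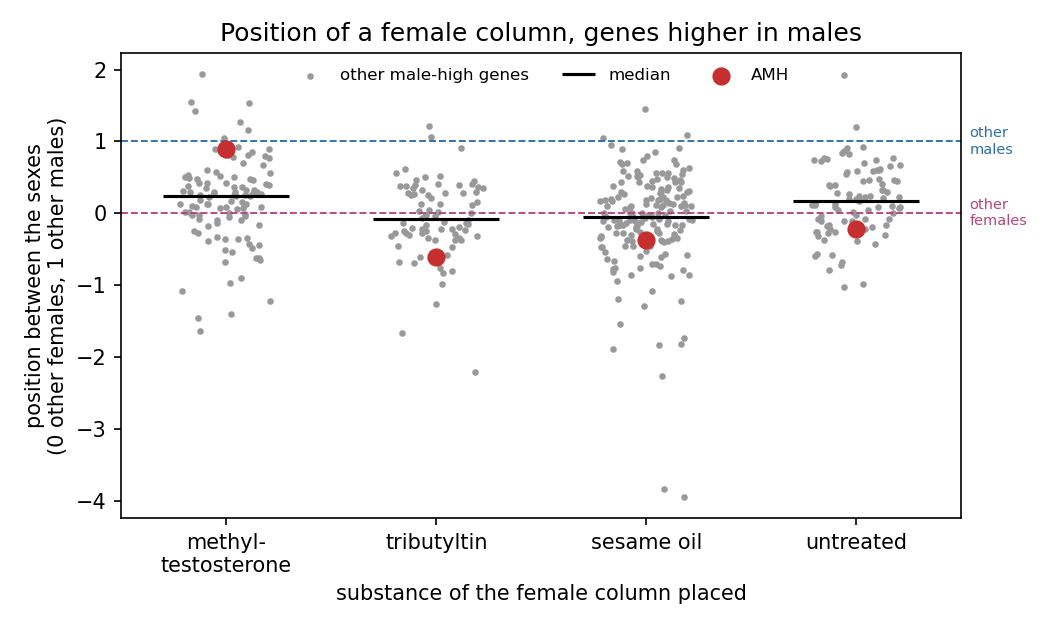
Position of the female column of each substance (horizontal axis) between the other females, at 0, and the other males, at 1, on log2(RPM + 1), for genes called higher in males without that substance. Grey points are genes, black bars are medians and red points are AMH. AMH stands at 0.893 for methyltestosterone, above the median of 0.239, and at -0.606, -0.376 and -0.213 for tributyltin, oil and untreated, below the medians.

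The receiving side of the AMH signal held 1 gene called by sex. Of 14 genes of AMH receptors, SMADs and their targets, 10 matched the table, 8 passed the filter on low values and 1 of these 8 was called by sex, against 5.96% of all genes tested, with a median log2 difference of 0.05 against 0.06 over all genes tested. AMHR2, SMAD4, SMAD7 and SMAD8 (another name of SMAD9) did not match by symbol, so the specific receptor is not analysed here. ACVR1, a type I receptor, was at 186, 66.9, 28.6 and 240 RPM in methyltestosterone, tributyltin, oil and untreated females, against 157, 72.8, 85.3 and 192 RPM in males (log2 -0.28, SE 0.30, limma adjusted p = 0.685). The other type I receptors were near the detection limit, BMPR1A at 0 to 5.14 RPM in females and 0 to 1.05 RPM in males, and BMPR1B at 0 to 10.3 RPM in females and 0 to 6.30 RPM in males.

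Among the signal carriers, SMAD1 was at 129 to 252 RPM in females and 135 to 278 RPM in males. SMAD5 was at 6.35 to 20.6 RPM in females and 6.09 to 13.8 RPM in males. SMAD9 and the inhibitory SMAD6 stayed below 5 RPM in all 8 columns. The called member was ID2, an inhibitor of differentiation whose transcription responds to bone morphogenetic proteins. It was at 438, 468, 226 and 378 RPM in methyltestosterone, tributyltin, oil and untreated females, against 217, 248, 138 and 239 RPM in males, and was thus higher in females within each substance (log2 0.82, SE 0.17, limma adjusted p = 0.0179). ID1 (log2 0.14) and ID3 (log2 -1.25) were not called.

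Genes listed here as known or possible regulators of AMH divided between those that parted the sexes and those that did not. The list also holds CYP19A1, which encodes an enzyme. All 17 matched and 15 were tested. GATA2 and CYP19A1 were higher in females (3.67% of all genes tested were), and SOX9, NR5A1 and HEMGN were lower (2.28% of all genes tested were; median log2 -0.09, against 0.06 over all genes tested). SOX9, the Sertoli cell transcription factor, was at 13.6, 5.14, 0 and 30.8 RPM in methyltestosterone, tributyltin, oil and untreated females, against 322, 47.2, 81.2 and 273 RPM in males (log2 -4.23, SE 0.52, limma adjusted p = 0.0016). Its methyltestosterone female value lay below its untreated female value, the opposite of AMH, and its position on the scale between the sexes was 0.322. The tributyltin and oil female values that enter this scale lay under the level of 3 tags, 7.72 and 9.53 RPM in those columns.

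NR5A1, the nuclear receptor steroidogenic factor 1, was at 250, 231, 226 and 216 RPM in methyltestosterone, tributyltin, oil and untreated females, against 518, 339, 292 and 407 RPM in males (log2 -0.72, SE 0.18, limma adjusted p = 0.0455). The sexes did not overlap, and the 4 female values lay close together. HEMGN, a Z-linked gene known in chicken as a factor of male sexual differentiation, was at 5.39, 5.14, 0 and 1.74 RPM in methyltestosterone, tributyltin, oil and untreated females, against 50.4, 39.4, 36.5 and 23.5 RPM in males (log2 -3.53, SE 0.56, limma adjusted p = 0.0048). Its position in methyltestosterone females was 0.356.

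CYP19A1, the aromatase that makes oestrogen, was at 97.3, 87.4, 118 and 28.7 RPM in methyltestosterone, tributyltin, oil and untreated females, against 11.1, 0, 0 and 3.58 RPM in males (log2 4.77, SE 0.73, limma adjusted p = 0.0040). The methyltestosterone female column that was high for AMH was thus also above the untreated one for aromatase. GATA2, a transcription factor of the GATA family, was at 40.6 to 54.0 RPM in females and 4.06 to 15.4 RPM in males (log2 2.36, SE 0.44, limma adjusted p = 0.0114).

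The other listed regulators did not pass by sex. DMRT1, the Z-linked testis determinant, was at 31.1, 0, 6.35 and 9.56 RPM in methyltestosterone, tributyltin, oil and untreated females, against 49.0, 15.7, 4.06 and 66.0 RPM in males (log2 -1.71, SE 0.71, limma adjusted p = 0.222). The methyltestosterone female column was the highest of the 4 female ones. It lay above the tributyltin and oil male columns, which hold fewer tags, and below the methyltestosterone and untreated male ones. The oil male value lay under the level of 3 tags, 6.09 RPM in that column. FOXL2, a granulosa cell factor, was at 117, 0, 3.18 and 126 RPM in methyltestosterone, tributyltin, oil and untreated females, against 18.4, 0, 0 and 25.1 RPM in males (limma adjusted p = 0.134).

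WT1 was at 41.2 to 91.0 RPM in females and 9.84 to 66.5 RPM in males, NR0B1, which opposes NR5A1, at 97.7 to 177 RPM in females and 81.2 to 143 RPM in males, and CTNNB1, beta-catenin, at 658 to 831 RPM in females and 749 to 1373 RPM in males. WNT4, the ovarian signal, was at 0 to 37.1 RPM in females and 11.8 to 24.4 RPM in males. GATA4, LHX9, SOX8 and the oestrogen receptors ESR1 and ESR2 stayed at or below 12.7 RPM in every column. No member of the receptor or regulator lists was called for methyltestosterone against untreated or for tributyltin against oil. In the contrasts that cross the depth division, oil against untreated called ACVR1, ID3, SOX9 and FOXL2 lower, and methyltestosterone against oil called ACVR1, SOX9 and FOXL2 higher among the members described here. Of all 9280 genes tested, the first contrast called 333 lower and the second 541 higher. In either direction they called 6.36% and 8.02% of genes.

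Relatives of AMH in the TGF-beta family moved in both directions. Of 24 ligands and binding proteins 20 matched and 13 were tested, of which BMP4, BMP7, TGFB2 and FSTL3 were higher in females and INHBB and BMP5 lower (median log2 -0.01, against 0.06 over all genes tested). Of all genes tested 3.67% were called higher and 2.28% lower. INHBB, the inhibin beta B subunit and like AMH a Sertoli cell product, was at 0.951, 0, 0 and 2.17 RPM in methyltestosterone, tributyltin, oil and untreated females, against 24.6, 7.87, 8.12 and 19.96 RPM in males (log2 -3.19, SE 0.54, limma adjusted p = 0.0066). Its methyltestosterone female value was 3 tags. BMP5 was at 40.6, 36.01, 34.9 and 21.7 RPM in methyltestosterone, tributyltin, oil and untreated females, against 73.8, 128, 85.3 and 53.2 RPM in males (log2 -1.29, SE 0.26, limma adjusted p = 0.0176).

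BMP4 was at 27.3, 61.7, 12.7 and 144 RPM in methyltestosterone, tributyltin, oil and untreated females, against 8.55, 5.90, 2.03 and 26.6 RPM in males (log2 2.33, SE 0.42, limma adjusted p = 0.0089). FSTL3, a binder of activin, had a log2 difference of 3.38, and BMP7 one of 2.58. TGFB2 was at 65.6, 149, 111 and 104 RPM in methyltestosterone, tributyltin, oil and untreated females, against 49.2, 66.9, 52.8 and 50.2 RPM in males (log2 0.91, SE 0.23, limma adjusted p = 0.0454). TGFB2 had the most negative correlation with AMH of all genes compared over the 8 columns (r = -0.98), and was named after its values were seen. BMP15, an oocyte factor, had no tag in any column.

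Genes of the Müllerian duct, the tissue AMH acts on, were counted next. Of 13 such genes 7 matched and 5 were tested, with OSR1 higher in females and WNT5A lower (median log2 0.30, against 0.06 over all genes tested, of which 5.96% were called). WNT5A, a secreted WNT, was at 111, 82.3, 22.2 and 60.8 RPM in methyltestosterone, tributyltin, oil and untreated females, against 288, 132, 114 and 181 RPM in males (log2 -1.47, SE 0.27, limma adjusted p = 0.0093), with a position of 0.786 in methyltestosterone females. OSR1 was at 16.1 to 38.1 RPM in females and 0 to 7.197 RPM in males (log2 3.51, SE 0.69, limma adjusted p = 0.0142). PAX2, which marks duct epithelium, had no tag in any column.

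Markers of cell types were summed to show what moved with AMH. The 6 other Sertoli markers that matched, without AMH, summed to 346, 309, 334 and 245 RPM in methyltestosterone, tributyltin, oil and untreated females, against 1020, 238, 233 and 715 RPM in males. Every female sum lay above those of tributyltin and oil males. The sum in methyltestosterone females was the highest among females but far from that in methyltestosterone males. FSHR, the receptor of follicle-stimulating hormone, made up 230 RPM of it. CLDN11, a tight junction protein of Sertoli cells, was at 9.19, 0, 0 and 2.61 RPM in methyltestosterone, tributyltin, oil and untreated females, against 411, 3.94, 10.2 and 229 RPM in males (log2 -4.28, SE 0.65, limma adjusted p = 0.0039). Granulosa and ovary markers (5 of 5 matched) summed to 323, 211, 226 and 227 RPM in methyltestosterone, tributyltin, oil and untreated females, against 90.3, 41.3, 30.4 and 71.1 RPM in males. This sum was highest in the methyltestosterone females, but of its 5 members WNT4 alone was highest there. Among females, FOXL2 and FST were highest without treatment, and CYP19A1 and RSPO1 after oil. RSPO1, an ovarian activator of WNT signalling, was at 53.6 RPM in methyltestosterone females, 28.7 to 88.9 RPM in the other females and 1.02 to 8.25 RPM in males.

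Markers of neighbouring tissues moved with sex as well. Mesonephros and kidney markers (7 of 8 matched) summed to 1903 to 3199 RPM in females and 264 to 625 RPM in males, and 6 of 7 tested were called higher in females, against 3.67% of all genes tested. UMOD, among those called, was matched only through the synonym ZPD, and which gene that entry stands for was not checked. PODXL alone made up 1512 to 2265 RPM of the female sums and 244 to 564 RPM of the male ones. Adrenal markers (6 of 8 matched) summed to 410 to 1180 RPM in females and 51.2 to 379 RPM in males, and 5 of 6 tested were called higher in females, against the same share of all genes. Müllerian duct and oviduct markers (5 of 5 matched, PAX2 at 0) summed to 1465, 520, 1188 and 755 RPM in methyltestosterone, tributyltin, oil and untreated females, against 552, 169, 272 and 272 RPM in males. GAL1 alone made up 1209, 455, 1042 and 593 RPM of these female sums, and 120 to 367 RPM of the male ones. OVAL stayed at or below 0.434 RPM in every column, so the sum mainly follows GAL1 and is not read here as a level of duct tissue. Red blood cell markers (5 of 6 matched) summed to 16659, 12053, 9860 and 10484 RPM in methyltestosterone, tributyltin, oil and untreated females, against 6891, 4729, 3977 and 2886 RPM in males. GAL1 and the red blood cell sum were highest in the methyltestosterone female column within females, as AMH was. Leydig and steroid markers, led by CYP17A1, summed to 9956 to 13163 RPM in females and 9567 to 12660 RPM in males, and germ cell markers to 41.3 to 64.3 RPM in females and 72.2 to 132 RPM in males. Their part in the AMH values was not tested.

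The genes whose pattern over the 8 columns was most like that of AMH had their highest female value after methyltestosterone, as AMH did. They were chosen by likeness over these same columns, so this shared peak follows largely from the choice. Among 3214 genes averaging 50 RPM or more, the highest Pearson correlations with AMH on log2(RPM + 1) were those of SWIP-1 (0.958), TSPAN6 (0.945), EEF1A (0.944), KCNJ8 (0.940), SLC37A2 (0.938), CYTH1 (0.936), COL9A2 (0.932) and ITM2A (0.927). In all, 23 genes exceeded 0.9 and the median was 0.02. The 8 columns share libraries and depth between genes, so these values are descriptions with no test. Of the 8 genes, COL9A2, KCNJ8 and CYTH1 were called lower in females.

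Most of these genes varied far less than AMH. COL9A2, a cartilage collagen chain, was at 9.19, 0, 0 and 3.91 RPM in methyltestosterone, tributyltin, oil and untreated females, against 256, 29.5, 48.7 and 175 RPM in males, a range of 8.004 on the log2 scale. The other 7 had ranges of 0.99 to 2.14, against 3.47 for AMH. KCNJ8, a potassium channel subunit, was at 149, 90.02, 95.3 and 100.8 RPM in methyltestosterone, tributyltin, oil and untreated females, against 304, 287, 272 and 276 RPM in males. ITM2A, a membrane protein gene, was at 2459 RPM in methyltestosterone females, 1070 to 1379 RPM in the other females and 1886 to 2177 RPM in males. EEF1A, a translation elongation factor, was at 16676 RPM in methyltestosterone females, 8416 to 10260 RPM in the other females and 13417 to 16577 RPM in males. For ITM2A and EEF1A the methyltestosterone female value thus lay above all male values, and methyltestosterone over untreated in females was 1.78-fold and 1.68-fold, against 4.56-fold for AMH.

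**Figure D5:**
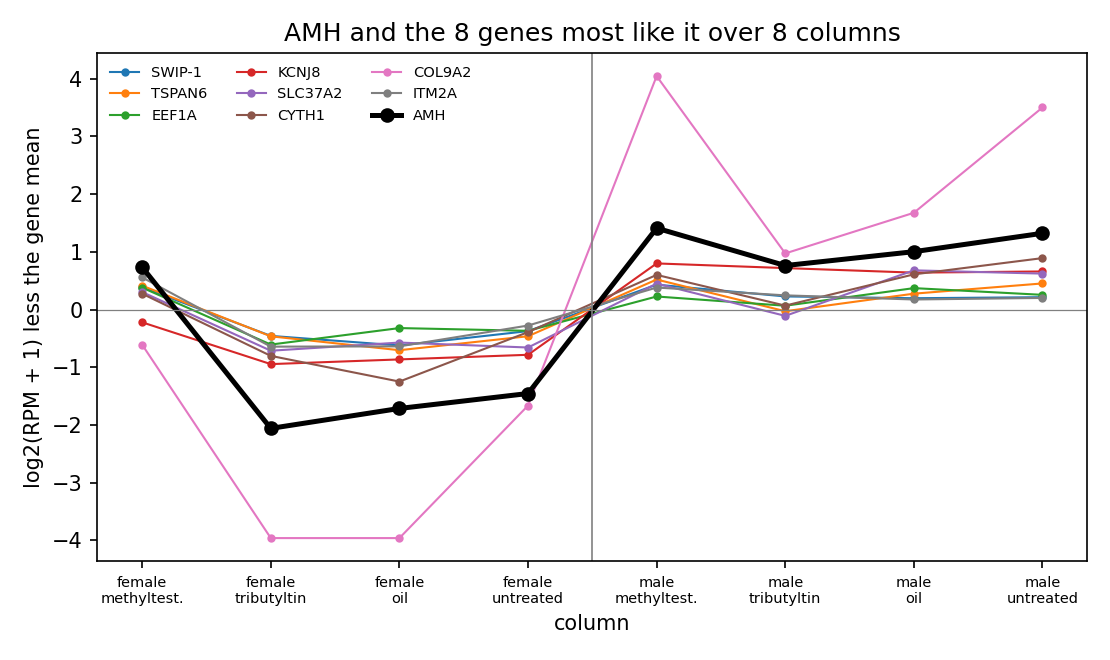
Level of AMH (thick black line) and of the 8 genes most like it over the 8 columns (horizontal axis), as log2(RPM + 1) less the mean of each gene (vertical axis). Lines join columns only to guide the eye. AMH spans 3.47 and COL9A2 8.004 on this scale, the other 7 genes 0.99 to 2.14, and AMH and 6 of the 8 lie above their own mean in the methyltestosterone female column.

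Genes beside AMH on chromosome 28 did not share its pattern. The nearest listed neighbours, by the gene order of the RefSeq annotation of GRCg7b, are ZAP70, LINGO3 and OAZ1 on one side and SF3A2, PLEKHJ1 and DOT1L on the other. OAZ1, an ornithine decarboxylase antizyme, was at 1950, 4396, 4952 and 3849 RPM in methyltestosterone, tributyltin, oil and untreated females, against 1755, 3982, 2937 and 2462 RPM in males, and was lowest after methyltestosterone in both sexes. SF3A2, a splicing factor subunit and the direct neighbour of AMH, was at 66.9, 36.01, 15.9 and 80.8 RPM in methyltestosterone, tributyltin, oil and untreated females, against 115, 23.6, 36.5 and 143 RPM in males. DOT1L, a histone methyltransferase, was at 8.88, 123, 57.2 and 1.30 RPM in methyltestosterone, tributyltin, oil and untreated females, against 5.40, 66.9, 58.9 and 0 RPM in males. ZAP70, LINGO3 and PLEKHJ1 stayed at or below 3.48 RPM in all columns.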

How the data were processed

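Per the submitters' processing notes, Novoalign and the build galGal4 were used for alignment. The aligner's version is not given in the sources used here. Per the file headers the deposited values are RPM, in which each column sums to the same total, and the authors wrote 0.05 where a gene had no tag, which was set to 0. The p-value of each gene for 12 pairs of columns was also deposited by the authors, with no test stated. Values on the log2 scale were computed here as log2(RPM + 1). Limma 3.58.1 in R 4.3.3 (empirical Bayes with a mean trend) was fitted to the 8 columns with sex and substance as additive terms, on the 9280 genes that reached 1 RPM in 4 or more columns, with Benjamini-Hochberg adjustment over these genes and calls at an adjusted p under 0.05. Differences between sex differences came from 1 added term for the female column of a substance. Each sex and substance is 1 column, so p-values measure only the spread between these columns.

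Whole tags were recovered from the deposited values, 99.7% to 100.0% of them within 0.01 of a whole number. Counts from 7 columns were tested with edgeR 4.0.16 and DESeq2 1.42.0. The untreated female column was left out of these because, as deposited with the filler, its values did not pass as whole tags, although 99.9% of them did with the filler set to 0. Limma on the same 7 columns was added after seeing the data, as were both count tools for the difference between sex differences. Ratios of single columns carry exact conditional binomial 95% intervals and levels exact Poisson ones.

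Named genes were AMH, its 8 most correlated genes, the 3 listed neighbours on each side, the receptors and regulators, and the 4 genes of highest male mean at a position of 0.5 or more. From each other list at most 4 members called by sex were to be named. This limit was not kept for the TGF-beta family. Some members not called, such as BMP15 and FSHR, are named as well, and some called members are not. AMH and the gene and marker lists were chosen with earlier results of these data known. Gene lists were matched by symbol or RefSeq synonym. The settings varied were the pseudocount (0.5 and 5), the filter (none, or a mean of 20 RPM or more), the scaling (median of ratios), subsets of columns, an added term for methyltestosterone females, count tools and leaving out each column in turn. The limma fit was tested on simulated data. Of the 14074 genes listed, 1731 had no symbol. Sequences, and coordinates of another build, are not used here. One member of the regulator list is counted but not reported here.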

Additional observations from a re-analysis of the deposited data

Results flagged for a closer look

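AMH in methyltestosterone females stood far from the other female columns. Its level of 6774 RPM, beside 977, 1242 and 1486 RPM after tributyltin, oil and no treatment, left a gap to the nearest female column that took up 0.912 of the whole female range, above Dixon's 95% critical value for 4 values. On the log2(RPM + 1) scale the same share was 0.784, below that value. In males no column stood apart, with shares of at most 0.371 on either scale. Chance marks about 1 in 20 groups in this way, and the 2 sexes were examined on 2 scales each. The pool was of 10 individuals, so whether a few or most of them had a high level cannot be told apart.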

How the results depend on the processing

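The log2 sex difference of AMH was negative under all 19 alternatives (-2.77 to -1.73; adjusted p 2.23e-13 to 0.373). It missed the threshold with no filter (-2.25, adjusted p = 0.0524) and on the oil and tributyltin columns alone (-2.77, adjusted p = 0.373, with 1076 genes at an unadjusted p under 0.05), while the untreated and methyltestosterone columns alone gave -1.73 (adjusted p = 0.00211). Leaving out single columns gave -2.77 to -2.06, and it missed the threshold without tributyltin females (adjusted p = 0.0509).

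The count of genes called by sex was 193 with no filter, 1014 on the untreated and methyltestosterone columns, 0 on the oil and tributyltin columns, 285 with the methyltestosterone female term, 342 in DESeq2 and 221 in limma on 7 columns, an alternative added after seeing the data. It was 216 to 444 when single columns were left out, lowest without tributyltin females. The cause was not tested.

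Methyltestosterone against oil passed with a mean of 20 RPM or more (1.43), in edgeR (1.45) and in DESeq2 (1.39). Leaving out single columns gave 0.38 without methyltestosterone females to 2.47 without methyltestosterone males, where it passed (limma adjusted p = 0.0129). The methyltestosterone excess of the sex difference passed in edgeR (2.27) and DESeq2 (2.21), added after seeing the data, and was 2.07 to 2.12 with single columns left out (adjusted p 7.13e-05 to 0.9998 over its alternatives). Under median-of-ratios scaling the ratio of methyltestosterone to untreated males turned to 0.985.

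Tributyltin against oil and oil against untreated passed under none of 17 alternatives each, and 15 of them kept the negative sign in each case. The labels give no replicate numbers to use as a block, and the sexes were paired through the substance term. The level of 3 tags was 5.90 to 9.53 RPM in the tributyltin and oil columns, and AMH stood above it in every column. Whether depth bears on the AMH values in another way was not tested.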
